A study of Mus musculus with 6 samples.

Results

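Genes of endoplasmic reticulum (ER) protein folding were followed in mouse tumor organoids (MTOs), which are intestinal tumor cells grown as epithelial cultures in a gel. The 10 genes Hspa5, Hyou1, Dnajb9, Hsp90b1, Calr, Canx, Pdia3, Pdia4, Pdia6 and Herpud1 were taken by name from the 20756 gene identifiers measured, and each matched 1 identifier. MTOs of C57BL/6 background carried a CRISPR guide against Prkci (sgPrkci, 3 libraries) or against Prkcz (sgPrkcz, 3 libraries), which encode PKCλ/ι and PKCζ, both atypical protein kinases. All 6 cultures were untreated and shared a medium with B-27 and recombinant human EGF, and the question addressed is how the transcripts of tumor cells differ between the 2 guides. The sources used here do not give whether an MTO line was a clone or a pool of edited cells, or what separated its replicates, so p-values measure the spread between these libraries only. No library with a control guide was analysed here, and each difference is given as sgPrkci minus sgPrkcz. The assignment of libraries to guides is that of the sample labels. A source table of the study uses the names in the opposite sense at 1 place, and with those names all signs below would flip.

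Proteins bound for the cell surface, for secretion or for the compartments of the secretory pathway fold in the ER. The Hsp70 protein BiP holds unfolded chains, calnexin and calreticulin hold newly made glycoproteins by their sugars, and protein disulfide isomerases form and rearrange disulfide bonds. When unfolded protein builds up, the sensors IRE1, PERK and ATF6 start the unfolded protein response (UPR), in which ATF6 and XBP1 raise the chaperone genes while PERK, through ATF4 and CHOP, acts on amino acid metabolism, redox balance and cell death. Cells with a heavy secretory load, such as goblet, Paneth and plasma cells, hold much ER and high levels of these transcripts.

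The promoters of the chaperone genes are shown because the ER stress response element (ERSE), bound by NF-Y and ATF6, is the feature by which the family is known to be raised together. RefSeq promoters on GRCm38.p6, each reaching from 250 bases before the start of the gene to 50 after it, were found for 9 of the 10 genes (none for Hyou1). These starts can differ from those of the gene positions given below, and the Hspa5 window lies inside the gene as positioned there. The ERSE, searched on both strands as CCAAT and CCACG with 9 unspecified bases between them, was present in 5 of the 9, namely Hspa5, Calr, Hsp90b1, Canx and Pdia6, against 39 of 32851 promoters of all genes (0.119%). Hsp90b1 held 2 copies. The second element of this kind, ERSE-II (ATTGG and CCACG with 1 unspecified base between them, both strands), lay in the promoter of Herpud1 and in 12 promoters in all (0.0365%). Both elements contain the CCAAT letters of the NF-Y box, which on its own was present in 9 of the 9 and in 37.4% of all promoters, and the XBP1-type core TGACGTGG was in 0 of the 9 and in 0.676% of all. The windows of 30 bases below are written 5′ to 3′ along the strand of the gene, with the fixed letters of the element in capitals. In Calr and in the second window of Hsp90b1 the element runs on the other strand, so the capitals read CGTGG and ATTGG.
Hspa5, chr2:34772020-34772049, plus strand: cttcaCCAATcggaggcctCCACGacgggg
Hsp90b1, chr10:86705632-86705661, minus strand: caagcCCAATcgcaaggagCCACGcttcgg
Hsp90b1, chr10:86705527-86705556, minus strand: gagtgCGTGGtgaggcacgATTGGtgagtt
Calr, chr8:84847069-84847098, minus strand: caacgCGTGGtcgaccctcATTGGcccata
Canx, chr11:50325794-50325823, minus strand: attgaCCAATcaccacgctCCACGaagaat
Pdia6, chr12:17266486-17266515, plus strand: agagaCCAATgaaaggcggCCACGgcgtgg
Herpud1, chr8:94386368-94386397, plus strand: cgggcgctgATTGGgCCACGttggacactg

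RNA was read from the 3′ end of each polyadenylated transcript, and the values are CPM, that is the share of the library's reads over all listed genes that fell on a gene, scaled to a total of 1000000. The libraries held 1593480 to 2815760 reads, so that 1 read was worth 0.355 to 0.628 CPM. Across genes, Pearson's r was 0.976 to 0.985 within a group and 0.920 to 0.934 between groups. Epithelial marker genes (9 of 10 above 0) summed to 3789 to 4171 CPM in sgPrkci libraries and 4496 to 4804 CPM in sgPrkcz libraries, among them Epcam, Cdh1, Krt8 and the intestinal factor Cdx2 (10.3 to 18.2 CPM), while Cdx1 was at 0 in all 6 libraries. The genes Gm42418, mt-Rnr1 and mt-Rnr2, which hold ribosomal RNA sequence, took 21.2% to 24.0% of the reads in sgPrkci and 17.6% to 19.4% in sgPrkcz, and this share lowers the CPM of the remaining genes by a different amount in the 2 groups. The median log2 fold change of all tested genes was -0.11, and it was 0.0016 after rescaling by TMM, which sets library scales so that the bulk of genes shows no difference. Changes of the chaperone genes are therefore also given on the TMM scale. Prkci measured 53.9, 56.5 and 46.9 CPM with sgPrkci and 72.3, 34.5 and 59.7 CPM with sgPrkcz, and Prkcz 2.26 to 5.02 CPM in all libraries. A small deletion at a guide's site need not lower a 3′ tag, so neither gene checks the labels.

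The ER chaperone genes took nearly the same total CPM in the 2 groups, on a scale that the unequal ribosomal share affects. Together the 10 genes took 4708, 4620 and 4352 CPM with sgPrkci and 4692, 4702 and 4605 CPM with sgPrkcz (0.435% to 0.471% of all reads), and the groups overlapped in CPM. After rescaling by TMM the log2 ratio of this total changed from slightly negative to slightly positive. Of the 10 genes 2 passed the test, Pdia4 being higher and Canx lower in sgPrkci, at an adjusted p under 0.05 by limma on log2(CPM + 1) with Benjamini-Hochberg adjustment over 9558 genes. All 10 had at least 11.1 CPM in every library, so none entered the test through 1 group alone. The background was far from empty: 40.9% of all tested genes passed (14.4% higher and 26.5% lower), and the members' share was 20%. On the TMM scale the members passing were Pdia4 and Pdia3, 2 higher and 0 lower, against 40.5% of all genes (20.7% higher and 19.8% lower). With edgeR on the recovered reads the counts were again 2 and 0, against 41.2% (21.0% and 20.2%), and at an unadjusted p under 0.05 both gave 4 higher and 0 lower. At that unadjusted p 24.4% of all genes were higher and 23.3% lower on the TMM scale, and 24.5% and 23.7% with edgeR. The libraries of the 2 groups did not overlap for 4 of the 10 genes (Hspa5, Dnajb9, Canx and Pdia4), against 50.0% of all genes. The log2 fold changes ran from -0.24 to 0.43 with a median of 0.02, which is 0.14 above the median of all genes (0.13 on the TMM scale). For 8 of the 10 genes the 95% interval of the fold change lay within 1.5-fold in either direction, as it did for 39.3% of all genes, and Dnajb9 and Pdia4 reached beyond it. These genes were measured more precisely than most, the median standard error (SE) of their log2 fold changes being 0.075 against 0.160 for all genes.

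**Figure D1:**
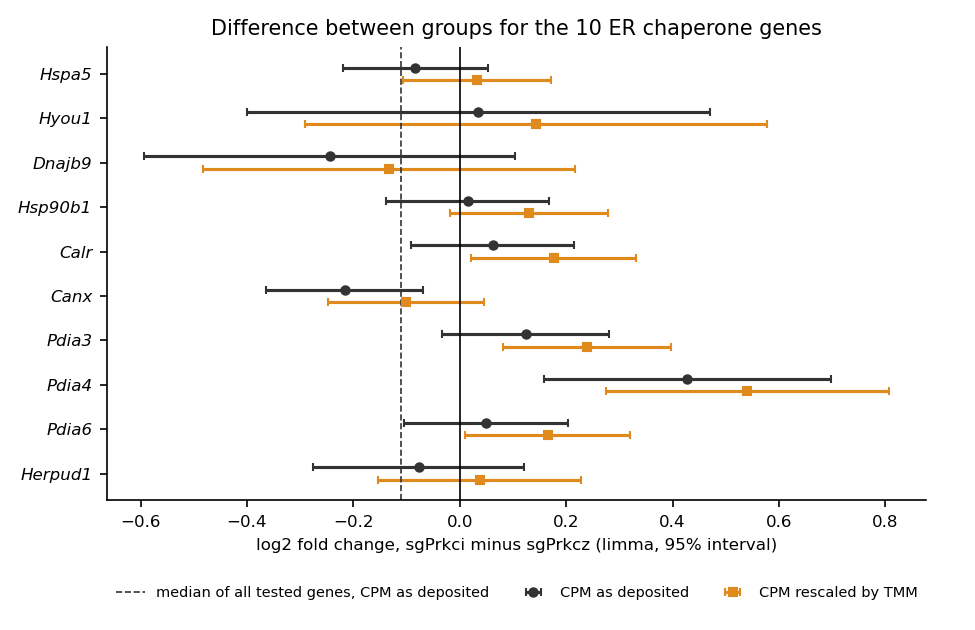
Log2 fold change (sgPrkci minus sgPrkcz, limma) of the 10 ER chaperone genes with 95% intervals, from CPM as deposited (black circles) and from CPM rescaled by TMM (orange squares). The dashed line is the median of all tested genes (-0.11). Pdia4 lies above 0 on both scales, the Canx interval lies below 0 only on the CPM scale, and those of Pdia3, Calr and Pdia6 lie above 0 only on the TMM scale.

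Hspa5 encodes BiP (GRP78), the Hsp70 chaperone of the ER lumen and the protein that keeps the UPR sensors inactive at rest. The gene (ENSMUSG00000026864, GRCm38 chr2:34771970-34777547, plus strand) measured 1938, 1892 and 1747 CPM with sgPrkci and 1943, 2008 and 1952 CPM with sgPrkcz. Every sgPrkcz library lay above every sgPrkci library, but the highest sgPrkci library and the lowest sgPrkcz library differed by only a few CPM, and replicate 12 set most of the spread. The log2 fold change was -0.08 ± 0.07 SE (95% interval -0.22 to 0.05, adjusted p = 0.332), and it was 0.03 on the TMM scale (adjusted p = 0.741). With 3199 to 5239 reads per library, counting alone gives a coefficient of variation of 1.47% and 1.64% in the 2 groups, and the observed ones were 5.35% and 1.78%. A 1.5-fold difference in BiP transcript thus lay outside the interval on both scales.

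The partners of BiP in the list were measured at far lower depth. Hyou1 (ENSMUSG00000032115, chr9:44379490-44392369, plus strand) encodes GRP170, a large Hsp70-like protein that exchanges nucleotide on BiP. It measured 12.4, 14.9 and 14.2 CPM with sgPrkci and 15.2, 14.4 and 11.1 CPM with sgPrkcz, from 19 to 41 reads a library. The groups overlapped throughout, with a log2 fold change of 0.04 ± 0.21 SE and an interval from -0.40 to 0.47 (adjusted p = 0.910). Dnajb9 (ENSMUSG00000014905, chr12:44205559-44210326, minus strand) encodes ERdj4, a J-domain co-chaperone that brings BiP to the sensor IRE1 and to misfolded chains. It measured 21.5, 19.1 and 21.0 CPM with sgPrkci and 26.3, 23.2 and 24.0 CPM with sgPrkcz. All sgPrkcz libraries were above all sgPrkci libraries, yet 37 to 71 reads a library left an interval of -0.59 to 0.10 for the log2 fold change of -0.24 ± 0.17 SE (adjusted p = 0.260). On the TMM scale the value was -0.13, and the test was passed under none of the 17 alternative settings (adjusted p = 0.118 to 0.727 over them).

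Hsp90b1 encodes GRP94, the Hsp90 chaperone of the ER, whose clients include integrins and Toll-like receptors. The gene (ENSMUSG00000020048, chr10:86690209-86705509, minus strand) measured 798, 834 and 761 CPM with sgPrkci and 856, 802 and 715 CPM with sgPrkcz. The highest and the lowest library were both sgPrkcz, so the groups overlapped fully. The log2 fold change was 0.01 ± 0.07 SE (95% interval -0.14 to 0.17, adjusted p = 0.893) and 0.13 on the TMM scale (adjusted p = 0.156). An antisense transcript, 1810014B01Rik, overlaps the 3′ end of the gene and measured at most 1.17 CPM. The sources used here do not give whether the counting used strand.

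**Figure D2:**
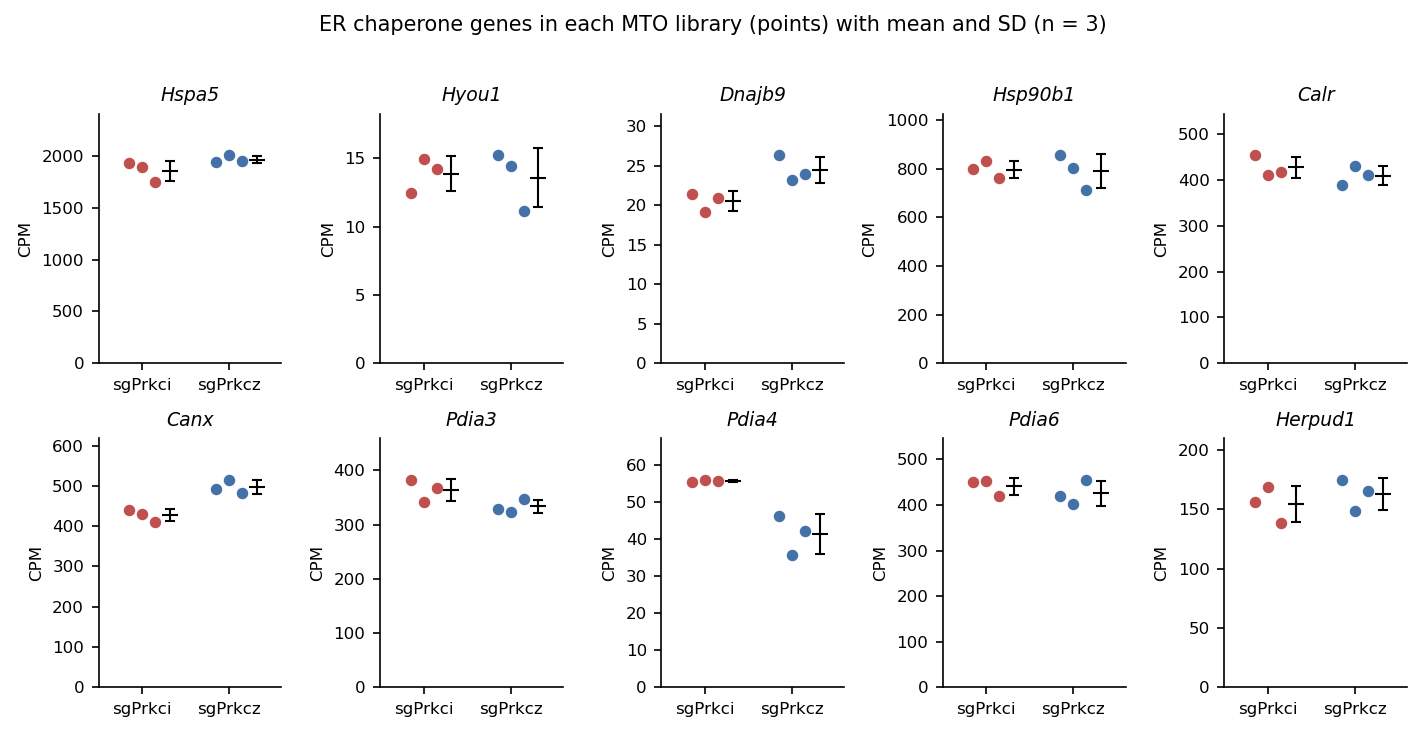
CPM of each ER chaperone gene in the 3 sgPrkci libraries (red, replicates 10, 11 and 12 from left to right) and the 3 sgPrkcz libraries (blue, replicates 13, 14 and 15), with the mean and SD in black. Each axis starts at 0. The groups separate for Pdia4 (55.4 to 56.0 against 35.8 to 46.4 CPM) and Canx (411 to 441 against 482 to 515 CPM). They also separate for Hspa5 (1747 to 1938 against 1943 to 2008 CPM) and Dnajb9 (19.1 to 21.5 against 23.2 to 26.3 CPM), which did not pass the test, and overlap for the other 6 genes.

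The lectin chaperones had log2 fold changes of opposite sign, of which only that of Canx passed. Canx encodes calnexin, the membrane-bound lectin that holds glycoproteins with a trimmed sugar until they have folded. The gene (ENSMUSG00000020368, chr11:50293961-50325673, minus strand) measured 441, 429.7 and 411 CPM with sgPrkci and 492, 515 and 482 CPM with sgPrkcz. All sgPrkci libraries were below all sgPrkcz libraries, and each group had a coefficient of variation near that of counting (3.46% and 3.42%, against 3.06% and 3.26%). Canx was 0.861-fold as high in sgPrkci (interval 0.777 to 0.953, log2 fold change -0.22 ± 0.07 SE, adjusted p = 0.0177). The call was lost on the TMM scale (log2 fold change -0.10, adjusted p = 0.272). It was also lost when sgPrkci replicate 12 or sgPrkcz replicate 14 was left out (adjusted p = 0.0647 and 0.0628).

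Calr encodes calreticulin, the soluble counterpart of calnexin and a calcium store of the ER lumen. The gene (ENSMUSG00000003814, chr8:84841850-84846934, minus strand) measured 454, 412 and 417 CPM with sgPrkci and 389, 429.9 and 410.2 CPM with sgPrkcz. The groups overlapped, the highest library being sgPrkci and the lowest sgPrkcz. The log2 fold change was 0.06 ± 0.07 SE (95% interval -0.09 to 0.22, adjusted p = 0.537) and 0.18 on the TMM scale (adjusted p = 0.0627). The processed pseudogene Calr-ps, which could take reads from Calr, measured at most 0.710 CPM.

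Pdia3 encodes ERp57, the disulfide isomerase that works on glycoproteins bound to calnexin and calreticulin. The gene (ENSMUSG00000027248, chr2:121413775-121438687, plus strand) measured 382, 342 and 367 CPM with sgPrkci and 329, 324 and 348 CPM with sgPrkcz. A single sgPrkcz library, replicate 15, lay above the lowest sgPrkci library, replicate 11. The log2 fold change was 0.12 ± 0.08 SE (95% interval -0.03 to 0.28) and did not pass the test (adjusted p = 0.200). On the TMM scale it was 0.24 and passed (adjusted p = 0.0151), and it passed with edgeR on the recovered reads too (adjusted p = 0.0127).

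Pdia4 had the largest difference of the 10 genes. It encodes ERp72, a disulfide isomerase of the ER lumen with several thioredoxin-like domains. The gene (ENSMUSG00000025823, chr6:47796141-47813430, minus strand) measured 55.4, 56.0 and 55.8 CPM with sgPrkci and 46.4, 35.8 and 42.1 CPM with sgPrkcz. All sgPrkci libraries lay above all sgPrkcz libraries, and sgPrkcz replicate 14 was the lowest. The coefficients of variation were 0.540% in sgPrkci and 12.9% in sgPrkcz, against 8.47% and 11.5% from counting alone. The sgPrkci libraries thus lay closer together than counting alone gives. Pdia4 was 1.35-fold higher in sgPrkci (interval 1.12 to 1.62, log2 fold change 0.43 ± 0.13 SE, adjusted p = 0.0112), and 0.54 on the log2 scale after TMM (adjusted p = 0.0016). The call rested on 57 to 157 reads a library and was lost without sgPrkcz replicate 14, with a log2 fold change of 0.33 (adjusted p = 0.0556). It held under the other 16 alternatives.

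Pdia6 encodes P5 (ERp5), a disulfide isomerase that binds BiP and attenuates IRE1 signaling. The gene (ENSMUSG00000020571, chr12:17266545-17284770, plus strand) measured 450.3, 452 and 419 CPM with sgPrkci and 421, 402 and 455 CPM with sgPrkcz. The highest and the lowest library were both sgPrkcz. The log2 fold change was 0.05 ± 0.07 SE (95% interval -0.10 to 0.20, adjusted p = 0.623) and 0.17 on the TMM scale (adjusted p = 0.0844). Atp6v1c2, whose 3′ end overlaps that of Pdia6 on the other strand, measured at most 2.13 CPM.

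Herpud1 encodes Herp, a membrane protein of ER-associated degradation (ERAD) that is among the UPR's fast-induced genes. The gene (ENSMUSG00000031770, chr8:94386438-94395377, plus strand) measured 157, 169 and 139 CPM with sgPrkci and 175, 149 and 166 CPM with sgPrkcz. The groups overlapped. The log2 fold change was -0.08 ± 0.10 SE (95% interval -0.27 to 0.12, adjusted p = 0.546) and 0.04 on the TMM scale (adjusted p = 0.785).

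Because the direction of a small difference depended on how the libraries were scaled, each gene was also expressed as a percentage of Hspa5 in the same library, a quantity that scaling leaves untouched. These percentages compare 3′ tags and are not molar ratios. Pdia4 amounted to 2.86%, 2.96% and 3.19% of Hspa5 in sgPrkci and to 2.39%, 1.78% and 2.16% in sgPrkcz, a log2 difference of 0.52. Pdia3 amounted to 19.7%, 18.1% and 21.0% in sgPrkci and to 16.9%, 16.1% and 17.8% in sgPrkcz, a log2 difference of 0.21. Both disulfide isomerases were thus higher relative to BiP in every sgPrkci library than in any sgPrkcz library. The ratios also carry the value of Hspa5, whose CPM was lower in every sgPrkci library (log2 fold change -0.08). In CPM, without division by Hspa5, the groups overlapped for Pdia3, as they did for Calr.

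Calr was 23.0% ± 1.10 (SD, n = 3) of Hspa5 in sgPrkci and 20.8% ± 0.726 in sgPrkcz, and Canx was 23.0% ± 0.471 in sgPrkci and 25.2% ± 0.489 in sgPrkcz. Pdia6, Hsp90b1, Dnajb9, Herpud1 and Hyou1 overlapped between the groups (log2 differences of 0.13, 0.10, -0.17, 0.01 and 0.12). For the 4 of 9 ratios whose groups did not overlap, the exact 2-sided permutation test gave p = 0.1, the smallest that 3 against 3 libraries allow, or 0.225 after adjustment over the 9 ratios, so none can pass here. Of all tested genes other than Hspa5, 48.0% had a ratio to Hspa5 that did not overlap between the groups, so 4 of 9 is near the background.

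**Figure D3:**
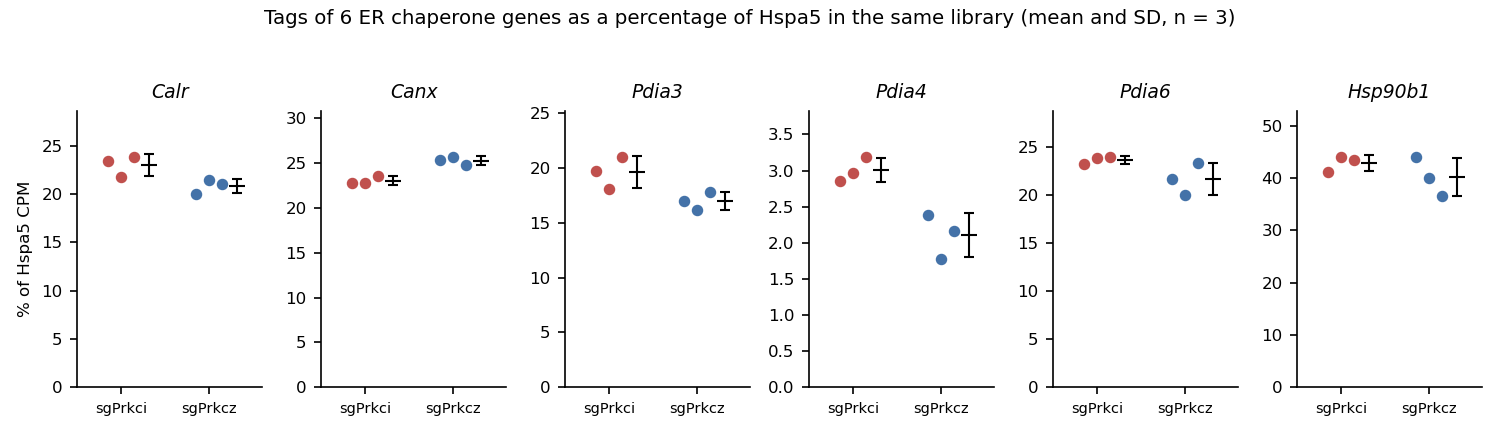
CPM of 6 ER chaperone genes as a percentage of the Hspa5 CPM of the same library (red sgPrkci, blue sgPrkcz, mean and SD in black, n = 3, axes from 0). Calr, Pdia3 and Pdia4 are higher and Canx is lower in every sgPrkci library than in every sgPrkcz library, and Pdia6 and Hsp90b1 overlap.

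The members differed in how closely their CPM followed that of Hspa5 over the 6 libraries. Over the 6221 genes that averaged 20 CPM or more, the Pearson correlation of log2(CPM + 1) with Hspa5 was 0.85 for Canx (rank 214), between 0.19 and 0.51 for Hsp90b1, Dnajb9 and Herpud1, 0.10 for Calr, -0.01 for Pdia6, -0.51 for Pdia3 and -0.69 for Pdia4. Genes with a profile most like that of Hspa5 included Pank3 (r = 0.991), Ddx19a (0.987), Cryzl1 (0.985) and Khsrp (0.984), all lowest in sgPrkci replicate 12. Hyou1 averaged less than 20 CPM and was left out, and correlations among the other members were not computed. With 6 libraries that share their scaling, these correlations are descriptions only.

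The genes with an ERSE, found above in 5 of the 9 promoters, were also looked at together, and a role of the element was not tested. Of the 11 tested genes with an ERSE, members included, 1 passed the test (Canx, lower), against 40.9% of all genes. Their median log2 fold change on the CPM scale was -0.03, against -0.11 for all genes. The tested genes with an ERSE outside the list, named for that element and not for their values, were Dnajc3, Creld2, Syvn1, Alg12, Pan2 and Hnrnpa3. Among them Dnajc3 (P58IPK, a co-chaperone of BiP and inhibitor of PERK) measured 144, 164 and 153 CPM with sgPrkci and 158, 151 and 163 CPM with sgPrkcz, while Creld2, a disulfide isomerase-like protein induced by ER stress, measured 34.3, 24.3 and 26.6 CPM with sgPrkci and 32.6, 31.4 and 22.2 CPM with sgPrkcz. Both overlapped between the groups (adjusted p = 0.778 and 0.966). Larger log2 fold changes that did not pass by limma either were those of Alg12 (-0.72, adjusted p = 0.0628), Hnrnpa3 (-0.24, adjusted p = 0.118) and Pan2 (0.24, adjusted p = 0.481). Syvn1 had -0.07 (adjusted p = 0.789).

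Of 21 co-chaperones, folding helpers and nucleotide exchange factors 18 were tested, and 4 were higher and 6 lower in sgPrkci, or 22.2% and 33.3%, against 14.4% and 26.5% of all genes (median log2 fold change -0.08). This and the list counts that follow are read against the same shares of all genes, and the differences between lists were not tested. List counts on the TMM scale are read against its own shares of all genes, 20.7% higher and 19.8% lower. The 4 with the smallest adjusted p by limma were Ppic, Dnajc10, Hspbp1 and Mesd. Dnajc10, the disulfide reductase ERdj5 that feeds chains into degradation, measured 226, 223 and 215 CPM with sgPrkci and 103, 120.5 and 114 CPM with sgPrkcz. It was higher in every sgPrkci library (log2 fold change 0.97 ± 0.09 SE, adjusted p = 1.26e-08). Ppic, a cyclophilin of the secretory pathway, measured 2.84 to 3.77 CPM against 21.3 to 38.0 CPM and was lower (-2.79 ± 0.24 SE, adjusted p = 7.06e-09), although it passed the filter on low values through sgPrkcz alone. Mesd, which folds LDL receptor family proteins, was lower (-0.65 ± 0.14 SE, adjusted p = 9.41e-04). Hspbp1 was lower as well (-1.20 ± 0.15 SE, adjusted p = 9.90e-07), and it is known as a partner of cytosolic Hsp70.

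Several ER oxidoreductase genes had larger log2 fold changes than the 0.43 of Pdia4. Of 20 genes 14 were tested, with 4 higher and 3 lower (median 0.08), and the list also named the calcium-binding Casq2, which was at 0. Ero1l, the oxidase that recharges protein disulfide isomerase, measured 1166, 1103 and 1145 CPM with sgPrkci and 647, 596 and 679 CPM with sgPrkcz, without overlap (log2 fold change 0.83 ± 0.07 SE, adjusted p = 3.46e-09). Qsox1, a sulfhydryl oxidase of the Golgi and the medium, was higher at 95.1 ± 27.7 against 45.2 ± 3.08 CPM (SD, n = 3; 1.02 ± 0.15 SE, adjusted p = 1.45e-05). Agr2, a disulfide isomerase family member needed for mucin production, measured 20.4, 11.2 and 17.0 CPM with sgPrkci and 2.97, 2.51 and 1.17 CPM with sgPrkcz (2.43 ± 0.30 SE, adjusted p = 1.09e-06), and passed the filter through sgPrkci alone. Tmx2, a membrane-bound thioredoxin-like protein, was lower (-0.83 ± 0.14 SE, adjusted p = 4.10e-05). The other genes called, named to complete the list, were Txndc5 (higher) and P4hb and Tmx1 (lower). Each kept its call under all 17 alternatives. Over these the log2 fold changes were 0.71 to 1.28 for Txndc5, -0.36 to -0.22 for P4hb and -0.65 to -0.45 for Tmx1.

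A few secretory cell genes, among them Agr2, differed with the group, and their part in these values was not tested. Of 9 goblet cell markers 8 were above 0 in at least 1 library, with a summed level of 52.8 to 70.7 CPM with sgPrkci and 5.27 to 7.42 CPM with sgPrkcz. Spink4, Agr2 and Ffar4 made up nearly all of it, while the defining mucin Muc2 was at 0 to 1.78 CPM, Tff3 at 0 to 0.355 CPM and Clca1, Fcgbp and Zg16 at no more than 1.87 CPM in any library. Paneth cell markers (4 of 7 above 0) summed to 12.1 to 18.5 CPM with sgPrkci and 9.27 to 11.9 CPM with sgPrkcz with Lyz1, Defa17 and Ang4 at 0. Of these Itln1 was at 3.74 to 7.17 against 0 to 1.11 CPM, and Mmp7, the only one tested, overlapped between the groups. Enteroendocrine markers (1 of 9 above 0) summed to at most 0.355 CPM. Plasma and B cell markers (4 of 11 above 0) summed to 201 to 235 CPM with sgPrkci and 170 to 191 CPM with sgPrkcz, of which all but 1.13 CPM or less in each library was Sdc1, a gene that epithelial cells express too. Other leukocyte markers (4 of 10 above 0) summed to 7.94 to 12.4 against 4.10 to 7.42 CPM, mostly Cd68, and fibroblast and endothelial markers (6 of 10 above 0) to 0.710 to 2.34 against 1.26 to 2.60 CPM. In such bulk libraries fewer cells of a type and less RNA per cell cannot be told apart.

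Among the sensors and transcription factors of the UPR, Atf4 had the largest difference. Of 20 sensors and factors 16 were tested, and 4 were higher and 3 lower in sgPrkci, or 5 and 2 on the TMM scale. Atf4, the factor translated when PERK or another kinase phosphorylates eIF2α, measured 469, 559 and 491 CPM with sgPrkci and 1261, 1352 and 1517 CPM with sgPrkcz. Each sgPrkcz library was more than 2-fold above each sgPrkci library (log2 fold change -1.44 ± 0.08 SE, adjusted p = 3.02e-12). Ddit3, which encodes CHOP, the factor downstream of ATF4, did not follow it: it measured 79.6, 103 and 83.5 CPM with sgPrkci and 79.0, 69.0 and 75.5 CPM with sgPrkcz. Every sgPrkci library lay above every sgPrkcz library, the nearest being at 79.6 and 79.0 CPM. The log2 fold change of Ddit3 was 0.24 ± 0.11 SE (adjusted p = 0.0955), and 0.36 on the TMM scale (adjusted p = 0.0140).

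Of the factors known to raise chaperone genes, Xbp1 and Atf6 passed the test and were higher in sgPrkci. Xbp1 measured 95.05, 86.9 and 74.6 CPM with sgPrkci and 71.6, 66.5 and 56.2 CPM with sgPrkcz, with no overlap (log2 fold change 0.40 ± 0.12 SE, adjusted p = 0.0114). Its call was lost without sgPrkci replicate 10 or sgPrkcz replicate 15 (adjusted p = 0.0869 and 0.0660), and 3′ tags do not tell the spliced, active form of Xbp1 from the unspliced one. Atf6 measured 57.7, 61.6 and 57.9 CPM with sgPrkci and 49.3, 45.2 and 46.8 CPM with sgPrkcz (0.32 ± 0.12 SE, adjusted p = 0.0351). Its adjusted p was 0.0654 to 0.108 without any 1 of the libraries 10, 11, 12, 14 and 15. Creb3l2, a membrane-bound factor of secretory cells, was higher at 56.8 ± 1.52 against 25.1 ± 5.24 CPM (SD, n = 3; 1.16 ± 0.15 SE, adjusted p = 2.06e-06).

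Of the remaining factors and sensors 3 passed the test. Nfya, a subunit of the NF-Y complex that binds the CCAAT letters, was at 10.8 ± 1.10 against 5.69 ± 3.34 CPM (SD, n = 3; difference of 0.98 ± 0.33 SE on the log2 scale, adjusted p = 0.0216), a call lost without sgPrkci replicate 10 or 11 or sgPrkcz replicate 14 (adjusted p = 0.0832, 0.0553 and 0.163). Mbtps1, the protease that cleaves ATF6 in the Golgi, was lower (-0.46 ± 0.13 SE, adjusted p = 0.0055), a call lost with DESeq2 (adjusted p = 0.0924). Atf6b was also lower (-0.37 ± 0.14 SE, adjusted p = 0.0418), a call that ended on the TMM scale (adjusted p = 0.151) and without sgPrkci replicate 12 or any 1 sgPrkcz library (adjusted p = 0.0759 to 0.264). The IRE1 gene Ern1 had a log2 fold change of -0.01 and the PERK gene Eif2ak3, at 3.77 to 15.4 CPM, 0.40 ± 0.32 SE (adjusted p = 0.957 and 0.327). Mbtps2 (0.17), Creb3 (-0.14), Nfyb (0.10), Nfyc (0.46), Yy1 (0.06) and Cebpb (-0.22) did not pass the test. Creb3l1, Creb3l3, Creb3l4 and Bhlha15 were below the filter.

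All 14 targets of ATF4 or CHOP in the list were tested, and 5 were higher and 5 lower, or 35.7% each way, against 14.4% and 26.5% of all genes (median log2 fold change -0.05). Trib3, a pseudokinase that restrains ATF4 and AKT signaling, measured 37.0, 34.6 and 39.4 CPM with sgPrkci and 103, 108 and 88.9 CPM with sgPrkcz (-1.41 ± 0.12 SE, adjusted p = 4.08e-09). Chac1, which degrades glutathione, measured 12.4, 7.94 and 12.4 CPM with sgPrkci and 38.6, 38.3 and 31.6 CPM with sgPrkcz (-1.66 ± 0.20 SE, adjusted p = 6.26e-07). Both were lower in every sgPrkci library than in any sgPrkcz library, as was Stc2, a secreted glycoprotein induced by ER stress (34.6 ± 5.30 against 81.0 ± 6.09 CPM, -1.21 ± 0.13 SE, adjusted p = 1.71e-07).

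Ddit4 (REDD1), an inhibitor of mTORC1 that hypoxia also induces, went the other way. It measured 376, 329 and 367 CPM with sgPrkci and 198, 195 and 242 CPM with sgPrkcz, and was higher without overlap (0.76 ± 0.09 SE, adjusted p = 5.72e-07).

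**Figure D4:**
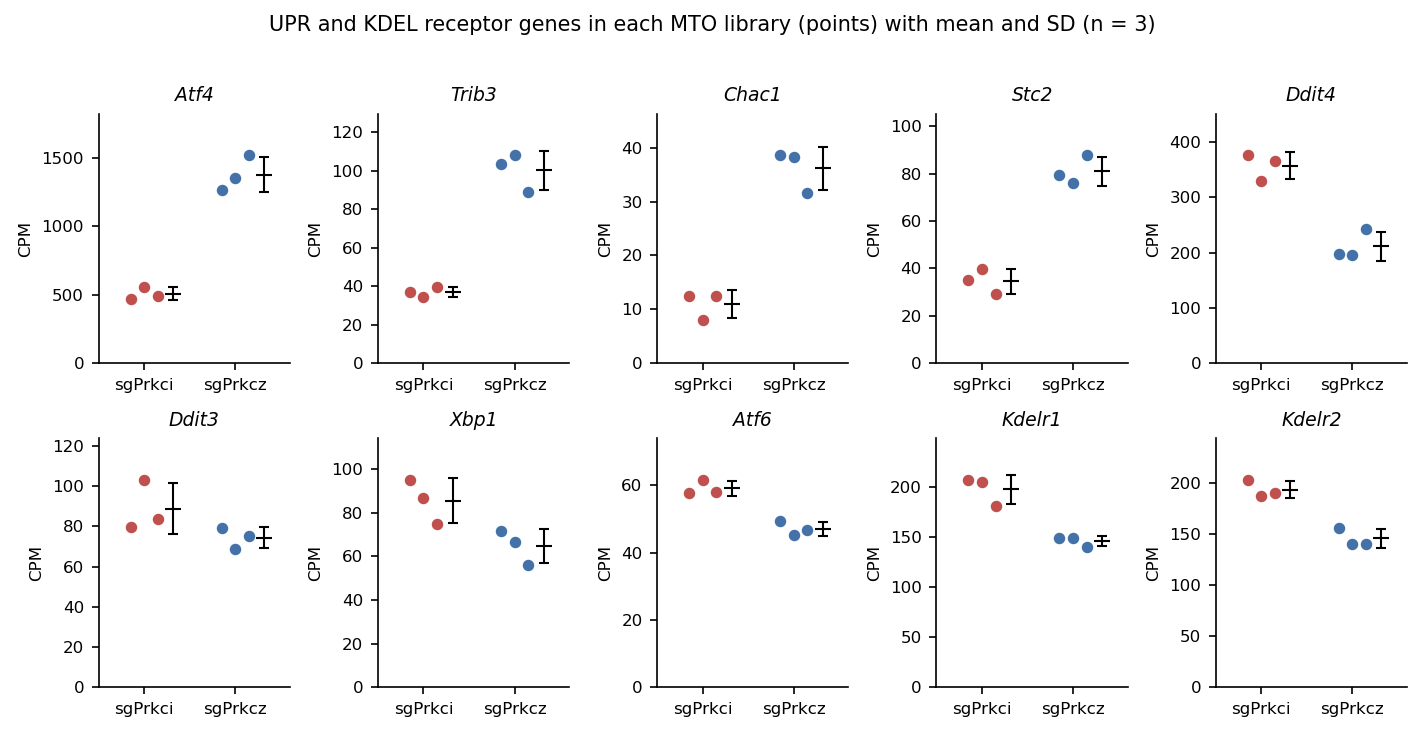
CPM of UPR factors, ATF4 or CHOP target genes and KDEL receptor genes in each library (red sgPrkci, blue sgPrkcz, mean and SD in black, n = 3, axes from 0). Atf4, Trib3, Chac1 and Stc2 are lower and Ddit4, Xbp1, Atf6, Kdelr1 and Kdelr2 higher in every sgPrkci library than in every sgPrkcz library. Ddit3 is also higher in every sgPrkci library, by a narrow margin, and did not pass the test on the CPM scale.

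ER-resident chaperones such as BiP, GRP94 and calreticulin carry a KDEL-type tail by which KDEL receptors return them from the Golgi. The receptor genes Kdelr1 and Kdelr2 passed the test, while Hspa5, Hsp90b1 and Calr did not. Among the members, Pdia4 passed in the same direction as these receptors (log2 fold change 0.43) and Canx in the other (-0.22). Kdelr1 measured 207, 205 and 181 CPM with sgPrkci and 149, 149 and 139.8 CPM with sgPrkcz (log2 difference 0.43 ± 0.09 SE, adjusted p = 3.94e-04). Kdelr2 measured 203, 187 and 189.6 CPM with sgPrkci and 156, 141 and 139.8 CPM with sgPrkcz (0.41 ± 0.09 SE, adjusted p = 6.39e-04). Both kept their call under all 17 alternatives, while Kdelr3 had a value of -0.25 and did not pass. Of the 16 genes of ER export and retrieval 15 were tested, with 2 higher and 1 lower (median 0.13). On the TMM scale 6 were higher and 0 lower, against 20.7% and 19.8% of all genes. With edgeR the counts were 5 and 0, and with DESeq2 2 and 0, the latter against 15.2% and 14.1% of all genes. The 1 lower by the main test was Sec24a, a cargo adaptor of the vesicle coat (-0.44 ± 0.14 SE, adjusted p = 0.0138), which lost its call on the TMM scale (adjusted p = 0.0581) and without sgPrkci replicate 11 or 12 or sgPrkcz replicate 13 (adjusted p = 0.0531, 0.0612 and 0.0625).

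Of 18 genes of N-glycosylation and the calnexin cycle 16 were tested, with 1 higher and 3 lower (median -0.06). The oligosaccharyltransferase subunit genes Rpn1 (-0.45 ± 0.08 SE, adjusted p = 7.08e-05) and Tusc3 (-0.61 ± 0.14 SE, adjusted p = 0.0017) were lower. Of the cargo receptor pair for glycoproteins that leave the ER, Mcfd2 was higher (0.68 ± 0.12 SE, adjusted p = 1.28e-04), and Lman1 was lower (-0.29 ± 0.09 SE, adjusted p = 0.0126) with a call lost on the TMM scale (adjusted p = 0.117) and without sgPrkci replicate 10 or 12 (adjusted p = 0.0657 and 0.0530).

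Of 26 ERAD genes 24 were tested, with 3 higher and 4 lower (median -0.07). The 4 lower ones were those with the smallest adjusted p: Selenos (-0.67 ± 0.10 SE), Derl1 (-0.64 ± 0.11 SE), the extracting ATPase gene Vcp (-0.43 ± 0.07 SE) and Aup1 (-0.54 ± 0.12 SE), with adjusted p of 9.82e-06, 5.40e-05, 5.98e-05 and 0.0012. The core ligase Syvn1 and its partner Sel1l, by which Herp acts, had log2 fold changes of -0.07 and -0.13 and did not pass (adjusted p = 0.789 and 0.241). Both were looked up for their link to Herpud1 after their values were known.

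Of 23 genes of protein entry into the ER 21 were tested, with 2 higher and 6 lower (median -0.07), or 5 and 4 on the TMM scale. The channel gene Sec61a1 measured 149, 179 and 151 CPM with sgPrkci and 219.6, 238 and 238 CPM with sgPrkcz and was lower (-0.54 ± 0.09 SE, adjusted p = 4.29e-05). The signal peptidase genes Sec11a (-0.52 ± 0.11 SE, adjusted p = 5.21e-04) and Spcs2 (-0.61 ± 0.13 SE, adjusted p = 9.76e-04) and the signal recognition particle gene Srp19 (-0.39 ± 0.09 SE, adjusted p = 0.0019) were lower too. With DESeq2 the calls of Spcs2 and Srp19 were lost (adjusted p = 0.138 and 0.0659), as was that of Spcs2 without the intensity trend (adjusted p = 0.0639).

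Calnexin, calreticulin and BiP also bind calcium, and of 16 genes of ER calcium handling 13 were tested, with 5 higher and 2 lower (median 0.23), or 7 and 1 on the TMM scale. Nucb2, a calcium-binding protein of the secretory pathway, measured 142, 137 and 151 CPM with sgPrkci and 81.2, 88.5 and 93.6 CPM with sgPrkcz (0.70 ± 0.10 SE, adjusted p = 4.68e-06). The inositol trisphosphate receptor genes Itpr1 (1.45 ± 0.29 SE, adjusted p = 3.49e-04) and Itpr3 (0.50 ± 0.12 SE, adjusted p = 0.0020) were higher. The calcium sensor gene Stim1 was lower (-0.79 ± 0.18 SE, adjusted p = 0.0012).

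Of 20 chaperone genes of the cytosol and mitochondria 18 were tested, 2 being higher and 12 lower in sgPrkci, against 14.4% and 26.5% of all genes (median -0.37 on the log2 scale). On the TMM scale 3 were higher and 10 lower, against 20.7% and 19.8% of all genes, and the median was -0.25. Cct5, a subunit of the chaperonin that folds actin and tubulin, measured 203, 191 and 215 CPM with sgPrkci and 369.7, 366 and 377 CPM with sgPrkcz (-0.87 ± 0.08 SE, adjusted p = 9.42e-09). The cytosolic relative of GRP94, Hsp90aa1, was lower (-0.70 ± 0.07 SE, adjusted p = 1.11e-07), as were the mitochondrial relative of BiP, Hspa9 (-0.69 ± 0.08 SE, adjusted p = 1.64e-07), and the nucleotide exchange factor gene Hspa4 (-0.70 ± 0.08 SE, adjusted p = 5.21e-07). The ER relatives of these genes had log2 fold changes of 0.01 for Hsp90b1, -0.08 for Hspa5 and 0.04 for Hyou1. The difference between the 2 families as groups was not tested.

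**Figure D5:**
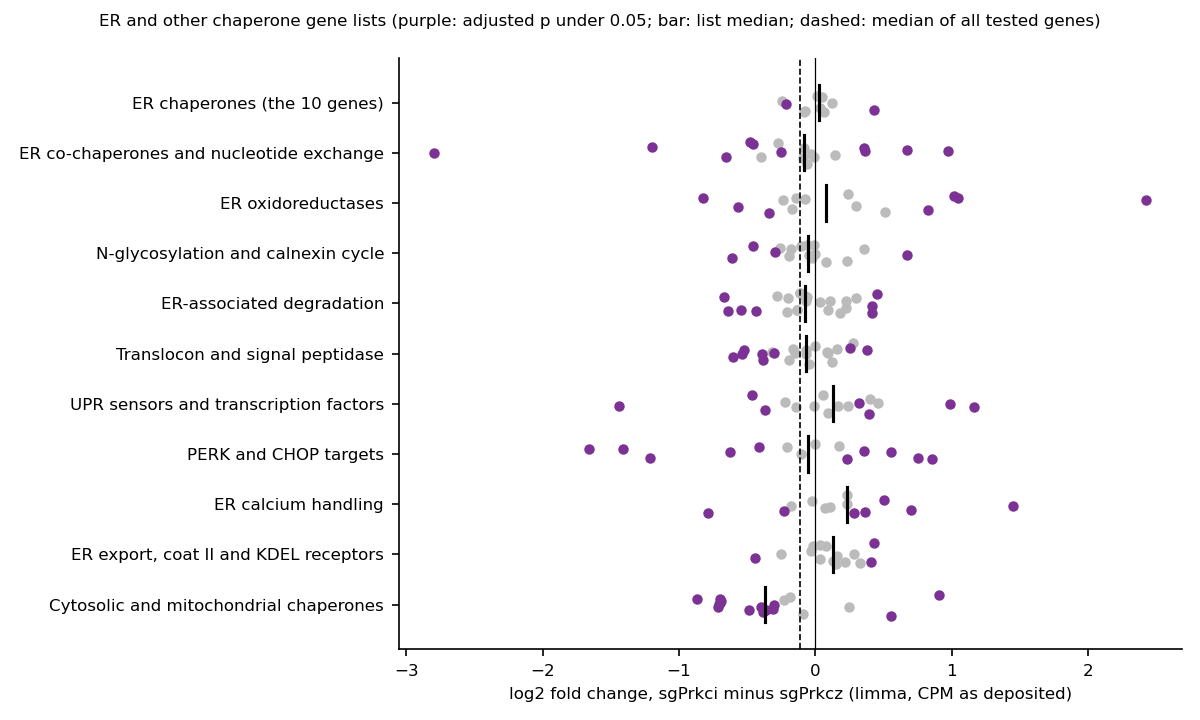
Log2 fold change (sgPrkci minus sgPrkcz, limma on CPM as deposited) of each tested gene in the ER chaperone list and in 10 further lists, with genes at an adjusted p under 0.05 in purple and others in gray. Black bars are list medians (0.02 for the 10 ER chaperones, -0.37 for cytosolic and mitochondrial chaperones), and the dashed line is the median of all tested genes (-0.11).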

How the data were processed

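MTO RNA was made into QuantSeq 3′ libraries and sequenced single-end (75 cycles). The authors deposited CPM per gene, per the labels on GRCm38. The protocol lists optional molecular identifiers, and a QuantSeq cloud pipeline stands in the study's software list. The sources used here do not say whether reads were collapsed on the identifiers, whether the pipeline served these libraries, or which aligner, counter and annotation were used. All values were whole multiples of the value of 1 read (100% within 0.01), so whole reads were recovered. Symbols and positions came from GENCODE M21, promoters from RefSeq GRCm38.p6. The main test was limma 3.58.1 (R 4.3.3, intensity trend) on log2(CPM + 1) over the 9558 genes that reached 5 CPM in 3 or more libraries, Benjamini-Hochberg threshold 0.05. This scale understates changes of low genes. The recovered reads were tested with edgeR 4.0.16 (3941 genes called), DESeq2 1.42.0 and limma-voom. Other alternatives were TMM and quantile scaling, leaving out rRNA-like genes or each library, no trend, other filters (none, 10 CPM) and pseudocounts (0.1, 10). The scripts were tested on simulated data with few changed genes and no difference in scaling between the groups. That setting does not cover the scaling difference seen here. Members and lists were chosen with earlier results of these data known. Named genes were the members, the targeted genes, the measured UPR factors, the 4 smallest adjusted p of each other list and the 5 genes most like Hspa5, of which 1 is not reported here. Other genes named are marked as such.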

Additional observations from a re-analysis of the deposited data

How the results depend on the processing

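No paired analysis was made because the labels give no pairing of libraries between the groups. Of the 10 members, 1 was higher and 1 lower in sgPrkci, against 14.4% and 26.5% of all genes. With TMM, quantile scaling, without rRNA-like genes, edgeR and DESeq2 the counts were 2 higher (Pdia4 and Pdia3) and 0 lower. With limma-voom they were 3 (Calr added) and 0, and without the intensity trend 1 and 0. The shares of all genes, higher and lower, were 20.7% and 19.8% with TMM and 19.4% and 20.2% with quantile scaling. They were 17.8% and 21.5% without rRNA-like genes, 21.0% and 20.2% with edgeR, and 15.2% and 14.1% with DESeq2. For limma-voom the shares were 20.9% and 20.1%, and without the intensity trend 11.6% and 22.8%. At an unadjusted p under 0.05 the lower count was 1 (Canx) with quantile scaling. It was 0 with TMM, edgeR, DESeq2, limma-voom, no trend and no rRNA-like genes. Of all genes the lower share at that p was 24.1% with quantile scaling, 23.3% with TMM, 23.7% with edgeR and 18.4% with DESeq2. This share was 23.7% with limma-voom, 29.7% with no trend and 25.7% with no rRNA-like genes. Leaving out 1 library gave 0 to 1 higher and 0 to 1 lower, the 0 coming without sgPrkcz replicate 14 (both directions) and sgPrkci replicate 12 (lower). The members' summed CPM had a log2 ratio of -0.0334, 0.0817 with TMM and 0.0381 without rRNA-like genes, so its sign changed with the scaling. Over all genes 1377 were higher and 2534 lower, against 1982 and 1889 with TMM, 2011 and 1930 with edgeR, and 1450 and 1350 with DESeq2, whose lower count is the smallest of these. Uncalled members changed sign as follows. With TMM, edgeR, DESeq2 and limma-voom Hspa5 was 0.0321, 0.0329, 0.0332 and 0.0338, and Herpud1 was 0.0372, 0.0279, 0.0311 and 0.0235. Leaving out 1 library moved Hyou1 between -0.0930 (without sgPrkcz replicate 15) and 0.117 and Hsp90b1 between -0.0560 (without sgPrkcz replicate 15) and 0.0733, and without sgPrkci replicate 11 both were slightly negative. Of 170 member values under the alternatives 141 kept direction and side of the threshold. With TMM Canx moved from -0.22 to -0.10 and Pdia3 from 0.12 to 0.24, while the median of all genes moved from -0.11 to 0.0016. What lies behind the difference in scaling was not tested. Depth limits Hyou1 and Dnajb9, at 19 to 71 reads a library.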
